A study of Homo sapiens with 24 samples.

Results

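HBL-1 is an established human lymphoma line, grown from a diffuse large B-cell tumour of the activated B-cell subtype. The 10 genes described here, of 21831 in each deposited table, were chosen by symbol for their place in the control of lipid peroxidation: GPX4, AIFM2, ACSL1, ACSL3, ACSL4, LPCAT3, DHODH, GCH1, VDAC2 and SAT1. Cells received 20 µM dimethyl fumarate (DMF) in DMSO, or DMSO alone as the control, and RNA was sequenced after 6, 12, 24 and 48 h, with 3 libraries in each of the 8 groups. No genotype or allele was given for the cells, all groups share the DMSO solvent, and the results hold for this line alone. Nothing in the labels says that libraries came from separate cultures, so each p-value measures the spread between libraries, which may be technical.

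Ferroptosis is an iron-dependent cell death in which peroxides build up on the polyunsaturated fatty acid tails of membrane phospholipids. The enzymes that load such tails into membranes (ACSL4 and LPCAT3) supply the substrate, while GPX4 reduces lipid peroxides with glutathione and AIFM2, also called FSP1, regenerates coenzyme Q as a radical trap at membranes. DHODH reduces coenzyme Q in mitochondria, and GCH1 starts the synthesis of tetrahydrobiopterin, another radical trap. DMF reacts with cysteine residues and is known to activate NRF2, the transcription factor that binds the antioxidant response element.

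Total expected counts were 2870751 in replicate 1 of DMF at 48 h and 23097873 to 40906596 in the other 23 libraries. Both libraries numbered replicate 3 at 12 h stood apart. The effective transcript length, averaged over their counts, was 2121 bases with DMF and 1902 bases in the control, against 2850 to 3157 bases in the other 22 libraries. Genes of ribosomal proteins took 20.77% of counts in that DMF library and 26.37% in that control, against 8.75% to 13.95% elsewhere. Each result is therefore given from a fit of all 24 libraries and from one of the 22 other libraries. The groups at 6, 24 and 48 h hold the same libraries in both fits, so there the folds nearly coincide and the estimated spread differs. The common dispersion was 0.0521 with 24 libraries and 0.00212 with 22. Among the 22 libraries, ribosomal protein genes took the largest shares in the 48 h controls (12.39% to 13.95%). The smallest were in the 48 h DMF libraries (8.75% to 8.99%). Effective lengths were 2850 to 3054 bases in those controls and 3091 to 3157 bases with DMF. Library composition thus differed with treatment at 48 h, and its part in the 48 h effects was not tested. The B-cell genes CD79A and CD79B, which encode the signalling chains of the B-cell receptor, had 1353 to 3308 TPM and 1432 to 4478 TPM over the 24 libraries, and the B-cell transcription factor gene PAX5 had 8.21 to 189.6 TPM. T-cell markers summed to at most 0.52 TPM with DMF and 0.74 TPM in controls, and monocyte and macrophage markers to 3.03 to 11.2 TPM with DMF and 2.47 to 4.78 TPM in controls, with CD68 between 1.86 and 10.01 TPM. Epithelial markers summed to 2.23 to 5.39 TPM with DMF and 3.07 to 6.82 TPM in controls, and fibroblast markers to at most 0.22 and 0.08 TPM, with DCN at 0 in 24 libraries. The part of these markers in the results was not tested.

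On the TPM scale, which corrects for transcript length, the outer mitochondrial membrane channel gene VDAC2 had the highest mean level of the 10 genes in all 8 groups, between 710 and 859 TPM. GPX4 came second, between 290.3 and 415 TPM, and the TPM values of these genes overlapped only in the control group of 12 h. ACSL4 and SAT1 came next, with mean levels between 39.9 and 98.6 TPM. Their order differed between groups: ACSL4 was above SAT1 with DMF at 6 h (69.8 and 64.3 TPM) and in the control at 6 h (73.1 and 57.1 TPM), and below it with DMF at 48 h (74.3 and 98.6 TPM) and in the control at 48 h (53.3 and 70.8 TPM). The other genes averaged between 7.07 and 39.5 TPM. DHODH was the lowest in all groups but the control of 48 h, where AIFM2 was lowest at 8.67 TPM. Outside 12 h, neighbouring genes that overlapped in level were GCH1 and LPCAT3 with DMF at 6 h (14.5 and 14.4 TPM), ACSL1, LPCAT3 and GCH1 with DMF at 24 h (27.5, 27.4 and 27.0 TPM), and ACSL3, GCH1 and AIFM2 with DMF at 48 h (25.7, 25.5 and 24.0 TPM). In controls the overlaps outside 12 h were GCH1 with LPCAT3 and ACSL3 with AIFM2 at 6 h, and ACSL3, ACSL1 and GCH1 at 48 h. At 12 h, replicate 3 included, each gene from SAT1 (71.0 TPM) down to GCH1 (13.5 TPM) overlapped the next lower one with DMF. In the 12 h control the same held from VDAC2 to GPX4, from ACSL4 to SAT1 and from LPCAT3 down to DHODH.

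The genes called with all 24 libraries were AIFM2, higher with DMF at 6 and 48 h, ACSL1, higher at 48 h, SAT1, higher at 12 h, and LPCAT3, lower at 12 h. GPX4 was lower with DMF at 48 h in the fit of 22 libraries and was not called in that of 24. In bulk RNA, fewer cells of a kind and less RNA per cell cannot be told apart. All 10 genes passed the filter on low counts. For DMF, rose and fell mean above or below the control of the same time. With 24 libraries and edgeR's quasi-likelihood test (adjusted p under 0.05), 1 gene rose and 0 fell at 6 h, where 10.6% of all tested genes were called (5.03% higher and 5.59% lower). In the 12 h comparison 1 rose and 1 fell, with 17.3% of all genes called (7.37% higher and 9.95% lower). For 24 h, 0 of the 10 were called, against 14.4% of all genes (7.81% higher and 6.60% lower). There, 2 had an unadjusted p under 0.05, DESeq2 called 0, and limma on log2(TPM + 1) called 2. After 48 h, 2 rose and 0 fell, with 25.8% of all genes called (13.3% higher and 12.5% lower). For the 0 that fell at 6 h and at 48 h, DESeq2 called 1 at each time, and 3 of the 10 genes had an unadjusted p under 0.05 at each time in either direction. An adjusted p above 0.05 does not show that a gene did not differ. With 22 libraries, 5 rose and 2 fell at 6 h, where 47.2% of all genes were called (23.8% higher and 23.4% lower). The labels do not say that replicate numbers pair the libraries, but both replicate 3 libraries of 12 h stood apart in the same direction. A fit of all 24 with the replicate number as a block called 6 higher and 3 lower at 12 h (47.8% of all genes, 23.3% higher and 24.4% lower). Between 12 h libraries of the same number, AIFM2, ACSL1, ACSL3, ACSL4, VDAC2 and SAT1 were always higher with DMF and LPCAT3, DHODH and GCH1 lower. For GPX4 these comparisons differed in direction. Without the block but with 22 libraries, the numbers were 6 up and 2 down at 12 h (47.9% of all genes, 24.1% higher and 23.8% lower), 5 up and 2 down at 24 h (57.4%, 29.5% higher and 27.9% lower), and 6 up and 4 down at 48 h (64.5%, 33.6% higher and 30.9% lower). The median log2 fold change of the 10 genes in the 24 libraries was 0.13, 0.28, 0.10 and 0.23 at 6, 12, 24 and 48 h, against 0.00, -0.05, 0.01 and 0.02 over all tested genes.

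Separation of the libraries is a simpler view of the same values. At 6 h all 3 DMF libraries lay above all 3 controls for 6 of the 10 genes and below them for 2, in CPM with TMM scaling, where 59.9% of all tested genes separated one way or the other. At 24 h the numbers were 5 above and 2 below (63.9% of all genes), and at 48 h 6 above and 4 below (60.7%). At 12 h, where replicate 3 of each arm is included, 0 genes lay above and 1 below (16.7%). The plot of CPM by library shows the replicate 3 libraries of 12 h far from their groups for most of the 10 genes.

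**Figure D1:**
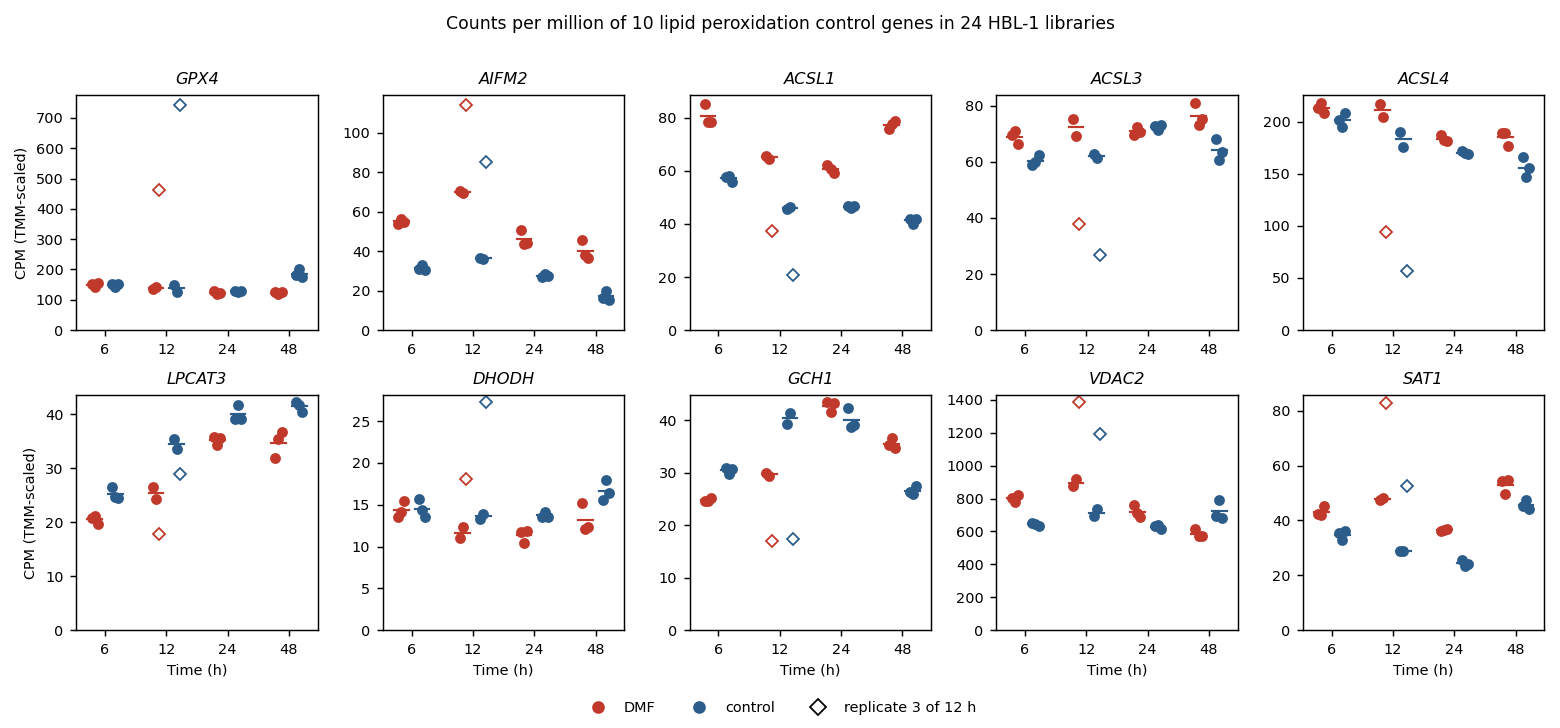
CPM (vertical axes, from 0, scaled per gene) by time in hours for each of the 10 genes, with a point for each library, DMF in red left of control in blue. Bars are group means, at 12 h without replicate 3, which is drawn as an open diamond; GPX4 reached 462 CPM in that DMF library and 744 CPM in that control.

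AIFM2 (chromosome 10, 70098223 to 70132934, minus strand, GRCh38 in GENCODE v29) averaged above its control at each time. It had 53.9, 56.5 and 55.0 CPM with DMF at 6 h, against 31.1, 33.2 and 30.6 CPM in controls. The libraries do not overlap, and the gene rose (log2 fold change 0.80 ± 0.25, the standard error of the fit, adjusted p = 0.045 with 24 libraries and 2.2e-10 with 22). That call at 6 h is near the threshold in the 24 libraries: it was lost in 19 of 24 fits that each left out 1 library, and with DESeq2's size factors (adjusted p = 0.071).

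At 12 h AIFM2 had 70.6, 69.5 and 114 CPM with DMF, against 36.4, 36.2 and 85.5 CPM in controls. Replicates 1 and 2 separated by treatment, whereas the control replicate 3 lay above the first 2 DMF libraries. On the TPM scale the 12 h groups did not overlap, with 34.6, 32.9 and 27.2 TPM with DMF against 18.98, 18.8 and 15.8 TPM in controls. Its log2 fold change at 12 h was 0.69 ± 0.25 (adjusted p = 0.065) with 24 libraries and 0.95 ± 0.08 (adjusted p = 2.2e-10) with 22, and with the replicate block it was 0.77 ± 0.10 (adjusted p = 2.0e-05). It ran from 0.42 without the DMF replicate 3 to 1.21 without the control replicate 3.

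At 24 h AIFM2 had 50.5, 43.6 and 44.0 CPM with DMF, against 26.8, 28.5 and 27.5 CPM in controls, a log2 fold change of 0.74 ± 0.25 (adjusted p = 0.055 with 24 libraries, 7.2e-10 with 22). At 48 h it had 45.6, 38.1 and 36.4 CPM with DMF, against 16.3, 19.7 and 15.2 CPM in controls. Every DMF library of these times lay above every control, and the level in both arms was lower at 48 h than at 6 h. AIFM2 rose 2.33-fold at 48 h (log2 fold change 1.22 ± 0.25, adjusted p = 0.0013 with 24 libraries; 1.17 ± 0.08 and 5.9e-13 with 22), and this call held in 24 of 24 fits that left out 1 library. AIFM2 also fell with time in the controls, where 48 h was 1.85-fold below control at 6 h (log2 fold change -0.89 ± 0.25, adjusted p = 0.0075).

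The 300-base promoter of AIFM2 in RefSeq (250 bases before to 50 after the start of transcription) is shown because it holds the core of the antioxidant response element, TGACNNNGC on either strand. Capitals mark the match, whose first base lies 22 bases before the start and which reads TGACTCAGC on the opposite strand. Of the 5 ACSL1 promoters in RefSeq, the one that holds the core, at a start within the annotated gene, is shown beside it, with the match TGACTTTGC 236 bases before the start.
AIFM2, chr10:70132776-70133075, minus strand, GRCh38.p14: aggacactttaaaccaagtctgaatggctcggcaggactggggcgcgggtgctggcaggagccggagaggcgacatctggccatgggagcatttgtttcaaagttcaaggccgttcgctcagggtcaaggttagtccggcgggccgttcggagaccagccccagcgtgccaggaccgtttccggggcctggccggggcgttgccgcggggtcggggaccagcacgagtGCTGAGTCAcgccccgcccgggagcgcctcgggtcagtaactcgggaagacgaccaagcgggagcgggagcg
ACSL1, chr4:184805504-184805803, minus strand, GRCh38.p14: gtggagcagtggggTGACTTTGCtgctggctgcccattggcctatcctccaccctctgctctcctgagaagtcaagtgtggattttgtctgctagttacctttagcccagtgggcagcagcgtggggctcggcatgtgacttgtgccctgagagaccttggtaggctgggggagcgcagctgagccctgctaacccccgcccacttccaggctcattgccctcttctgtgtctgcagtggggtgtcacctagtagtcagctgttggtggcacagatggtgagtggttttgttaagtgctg

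The core was found in 2 of the 16 promoters that RefSeq gives for these genes, against 13.3% of 35116 promoters of the same length. The site TGATGNAA of ATF4, a stress transcription factor, was found in 0 of the 16 and in 3.62% of all. GCH1 was matched to no promoter. A match of letters is a description and shows no binding.

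ACSL1 (chromosome 4, 184755595 to 184826818, minus strand) encodes a long-chain acyl-CoA synthetase that activates fatty acids for lipid synthesis and oxidation. It had 85.4, 78.4 and 78.3 CPM with DMF at 6 h, against 57.9, 58.0 and 55.9 CPM in controls. At 24 h the values were 62.1, 60.8 and 59.2 CPM with DMF, against 46.8, 45.9 and 46.8 CPM in controls. The groups do not overlap at either time, yet the adjusted p was 0.18 at 6 h (log2 fold change 0.49 ± 0.21) and 0.29 at 24 h (0.39 ± 0.21) with 24 libraries. With 22 libraries it was 2.3e-10 and 1.3e-08.

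At 48 h ACSL1 had 76.0, 77.5 and 78.8 CPM with DMF, against 41.9, 40.1 and 42.0 CPM in controls, and rose 1.87-fold (log2 fold change 0.91 ± 0.22, adjusted p = 0.0040 with 24 libraries; 0.92 ± 0.04 and 1.4e-15 with 22). The call held in 24 of 24 fits that left out 1 library, but not on the TPM scale (limma on log2(TPM + 1), adjusted p = 0.090). At 12 h it had 65.8, 64.5 and 37.3 CPM with DMF, against 45.7, 46.2 and 20.8 CPM in controls. Replicate 3 was the lowest library of each arm there, and the log2 fold change was 0.57 ± 0.22 (adjusted p = 0.078) with 24 libraries and 0.51 ± 0.05 (adjusted p = 6.6e-09) with 22. With the replicate block it was 0.60 ± 0.07 (adjusted p = 3.6e-06), and it ran from 0.28 without the control replicate 3 to 0.79 without the DMF replicate 3.

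ACSL4 (chromosome X, 109624244 to 109733403, minus strand), the synthetase that prefers arachidonic acid and so feeds peroxidisable tails into phospholipids, had 213, 218 and 209 CPM with DMF at 6 h, against 202, 195 and 208 CPM in controls, and 189, 189 and 176 CPM with DMF at 48 h, against 166, 147 and 155 CPM in controls. The groups lay close together at 6 h and further apart at 48 h. At 12 h ACSL4 had 217, 205 and 94.6 CPM with DMF, against 189.8, 176 and 56.9 CPM in controls, and at 24 h 188, 183 and 181 CPM with DMF, against 172, 169.7 and 169 CPM in controls. The log2 fold change was 0.08, 0.29, 0.11 and 0.25 at 6, 12, 24 and 48 h, each with a standard error of 0.30, and adjusted p between 0.60 and 0.96 with 24 libraries. With 22 libraries the 95% interval of the effect at 6 h was -0.01 to 0.17 and that at 48 h 0.15 to 0.34 (adjusted p = 0.16 and 3.8e-05). ACSL4 was also called higher with 22 libraries at 12 h (log2 fold change 0.21, adjusted p = 0.0019) and 24 h (0.11, adjusted p = 0.028), and with the replicate block at 12 h (0.37, adjusted p = 0.0019). ACSL4 was the only one of the 10 genes whose expected count was not whole in some libraries (15 of 24), so for ACSL4 reads were shared out by estimate. On the TPM scale its 6 h effect had the opposite sign (-0.06).

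ACSL3 (chromosome 2, 222860934 to 222944639, plus strand), which activates monounsaturated fatty acids among others, had 69.5, 71.2 and 66.5 CPM with DMF at 6 h, against 58.8, 60.2 and 62.5 CPM in controls. At 24 h it had 69.6, 72.5 and 70.7 CPM with DMF, against 72.9, 71.4 and 73.3 CPM in controls. The 6 h groups do not overlap and the 24 h groups do. At 12 h ACSL3 had 75.5, 69.4 and 37.9 CPM with DMF, against 62.7, 61.3 and 26.9 CPM in controls, and at 48 h 81.2, 73.2 and 75.2 CPM with DMF, against 68.0, 60.8 and 63.6 CPM in controls. Its log2 fold change was 0.19, 0.28, -0.03 and 0.25 at 6, 12, 24 and 48 h, with standard errors of 0.23 to 0.24, and ACSL3 was called at 0 of the 4 times with 24 libraries. With 22 libraries it was called at 6, 12 and 48 h (adjusted p = 0.0014, 0.0013 and 0.00012), and at 24 h the 95% interval was -0.12 to 0.06. With the replicate block the 12 h effect was 0.30 ± 0.06 (adjusted p = 0.00092).

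LPCAT3 (chromosome 12, 6976186 to 7018510, minus strand) inserts arachidonoyl and other polyunsaturated chains into lysophospholipids. It had 20.8, 21.1 and 19.6 CPM with DMF at 6 h, against 26.6, 24.7 and 24.4 CPM in controls. At 12 h it had 26.5, 24.4 and 17.8 CPM with DMF, against 35.5, 33.6 and 28.9 CPM in controls. It was the one gene of the 10 whose 12 h groups did not overlap in CPM, replicate 3 included, and it fell 1.43-fold there (log2 fold change -0.51 ± 0.11, adjusted p = 0.0033 with 24 libraries; -0.44 ± 0.06 and 2.3e-06 with 22). The call held in 24 of 24 fits that left out 1 library, and was lost with limma on log2(TPM + 1) (adjusted p = 0.66). It was also lost in the fit of the 6 libraries of 12 h alone (0.58), where 0 of all tested genes were called.

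At 24 h LPCAT3 had 35.7, 34.3 and 35.7 CPM with DMF, against 39.1, 41.7 and 39.2 CPM in controls, and at 48 h 31.9, 35.4 and 36.7 CPM with DMF, against 42.3, 41.8 and 40.5 CPM in controls. The DMF libraries lay below the controls at both times in CPM. In TPM the 48 h groups overlapped, at 27.6, 31.5 and 32.2 TPM with DMF against 32.4, 28.97 and 31.6 TPM in controls. Log2 fold changes were -0.30 ± 0.11 at 6 h, -0.18 ± 0.11 at 24 h and -0.25 ± 0.11 at 48 h, with adjusted p of 0.11, 0.34 and 0.12 with 24 libraries and 6.3e-05, 0.0027 and 0.00098 with 22. In control cells LPCAT3 was higher at each later time than at 6 h, by log2 fold changes of 0.37 at 12 h, 0.66 at 24 h and 0.72 at 48 h (adjusted p = 0.034, 0.00042 and 4.3e-05 with 24 libraries). On the TPM scale the 12 h difference had the opposite sign (-0.15), and the 12 and 24 h calls were lost.

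GPX4 (chromosome 19, 1103926 to 1106791, plus strand), the selenoprotein that reduces phospholipid hydroperoxides, had 151, 143 and 155 CPM with DMF at 6 h, against 151, 142 and 153 CPM in controls. At 24 h it had 129, 119 and 121 CPM with DMF, against 130.3, 127 and 129 CPM in controls. The groups overlap at both times. In TPM they did not: at 6 h GPX4 had 322, 309 and 321 TPM with DMF, against 351, 331 and 361 TPM in controls, a log2 difference of -0.13 where the median over all genes was also shifted, by -0.14. With 22 libraries the 95% interval of the log2 fold change was -0.11 to 0.12 at 6 h and -0.17 to 0.05 at 24 h. With 24 libraries the same intervals were -1.02 to 1.03 and -1.09 to 0.96.

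At 48 h GPX4 had 126, 119 and 126 CPM with DMF, against 180.4, 203 and 175 CPM in controls, so that all DMF libraries were below all controls. The log2 fold change of -0.59 had a standard error of 0.49 and an adjusted p of 0.44 with 24 libraries, and a standard error of 0.06 and an adjusted p of 1.4e-09 with 22. In TPM the 3 DMF libraries of 48 h had 328, 315 and 330 TPM, against 414, 420.1 and 412 TPM in controls. The 48 h controls were also above the 6 h controls (log2 fold change 0.33 ± 0.05, adjusted p = 6.0e-06 with 22 libraries, and 0.32 ± 0.49, adjusted p = 0.64, with 24). Ribosomal protein genes took 12.39% to 13.95% of counts in the 48 h controls and 8.75% to 8.99% with DMF. Mean effective lengths were 2850 to 3054 bases in those controls and 3091 to 3157 bases with DMF. Replicate 3 of 12 h differed from other libraries in the same direction. The part of this difference in the GPX4 effect was not tested.

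The 12 h values of GPX4 were set by replicate 3. It had 137, 144 and 462 CPM with DMF, against 149, 126 and 744 CPM in controls. Replicate 3 was the highest library of each arm by a wide margin, while replicates 1 and 2 of the 2 arms overlapped. The log2 fold change was -0.46 ± 0.49 with 24 libraries, 0.04 ± 0.07 with 22, 0.83 without the control replicate 3 alone and -1.27 without the DMF replicate 3 alone.

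Over all tested genes, the shift of replicate 3 against the mean of replicates 1 and 2 at 12 h ran with transcript length. Genes under 1000 bases (n = 777) had a median shift in log2 CPM of 1.2 in the DMF library and 1.65 in the control, and genes over 5000 bases (n = 2468) of -0.89 and -1.08. GPX4, with a mean transcript length of 943 bases the shortest of the 10, shifted by 1.72 in the DMF library and 2.44 in the control. ACSL4 (4723 bases) shifted by -1.15 and -1.67, and ACSL3 (5602 bases) by -0.92 and -1.19. AIFM2 (3248 bases) and DHODH (2451 bases) shifted upward, by 0.70 and 0.61 in the DMF library and 1.22 and 0.98 in the control, where genes of 3000 to 5000 bases had medians of -0.35 and -0.50 and genes of 2000 to 3000 bases 0.13 and 0.11.

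**Figure D2:**
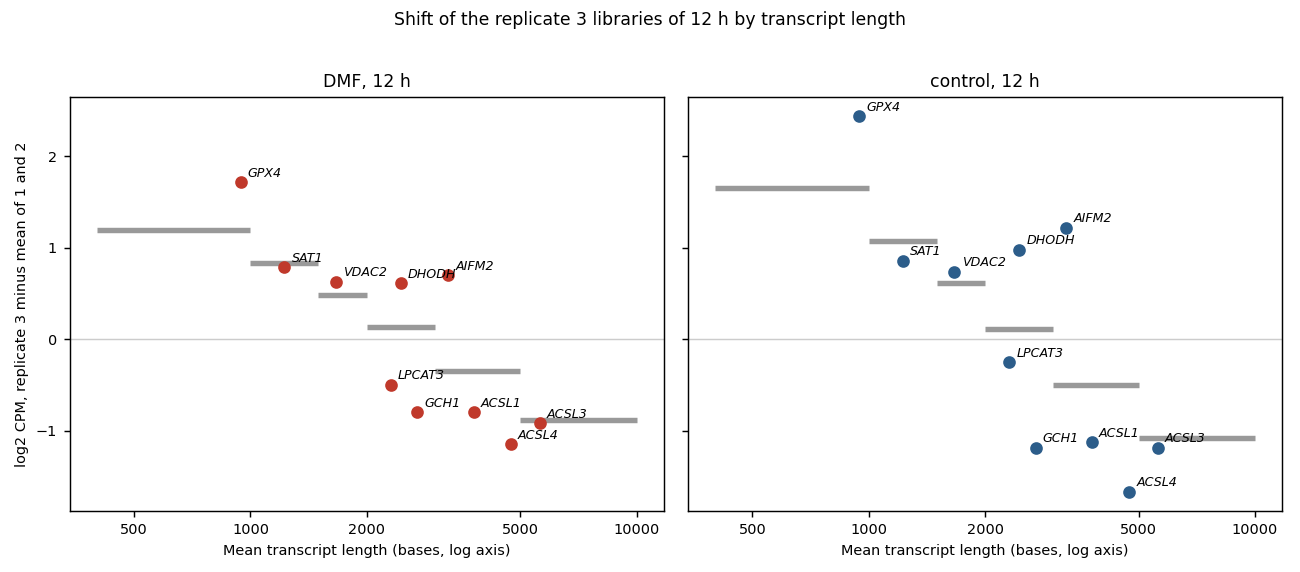
Shift of replicate 3 at 12 h, as log2 CPM minus the mean of replicates 1 and 2 (vertical axis), against mean transcript length in bases (horizontal log axis), for the 10 genes (points; DMF left, control right). Grey bars are medians over all tested genes in 6 length classes, with the outermost bars ended at the edges of the axis; GPX4 is highest in both panels and ACSL4 lowest.

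DHODH (chromosome 16, 72008588 to 72027664, plus strand), the pyrimidine synthesis enzyme that passes electrons to coenzyme Q, had 13.5, 14.1 and 15.4 CPM with DMF at 6 h, against 15.7, 14.4 and 13.5 CPM in controls. At 24 h it had 11.8, 10.4 and 11.8 CPM with DMF, against 13.6, 14.1 and 13.6 CPM in controls, and at 48 h 15.2, 12.1 and 12.3 CPM with DMF, against 15.6, 17.97 and 16.4 CPM in controls. The groups overlap at 6 h and lie apart, with DMF lower, at 24 and 48 h. At 12 h DHODH had 11.03, 12.3 and 18.1 CPM with DMF, against 13.3, 13.9 and 27.3 CPM in controls, and replicate 3 was the highest library of each arm. Its log2 fold changes were -0.02, -0.40, -0.28 and -0.36 at 6, 12, 24 and 48 h, with adjusted p between 0.24 and 0.99 with 24 libraries. With 22 libraries DHODH was called lower at 24 and 48 h (adjusted p = 0.0030 and 9.2e-05) and had adjusted p = 0.90 and 0.058 at 6 and 12 h, and with the replicate block its 12 h effect was -0.35 ± 0.10 (adjusted p = 0.012). On the TPM scale the 48 h values overlapped, at 12.4, 10.05 and 10.01 TPM with DMF against 11.2, 11.7 and 12.0 TPM in controls.

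GCH1 (chromosome 14, 54842008 to 54902852, minus strand) encodes GTP cyclohydrolase, the first enzyme of tetrahydrobiopterin synthesis, and stood on different sides of its control at early and late times. It had 24.5, 24.5 and 25.2 CPM with DMF at 6 h, against 30.8, 29.8 and 30.8 CPM in controls. At 48 h it had 35.3, 36.6 and 34.7 CPM with DMF, against 26.2, 26.0 and 27.4 CPM in controls. The groups do not overlap at these times: DMF was lower at 6 h and higher at 48 h.

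Between these times, GCH1 had 30.0, 29.3 and 16.9 CPM with DMF at 12 h, against 39.3, 41.3 and 17.3 CPM in controls, and 43.4, 41.6 and 43.2 CPM with DMF at 24 h, against 42.2, 38.6 and 39.1 CPM in controls. Its log2 fold changes were -0.30 ± 0.22, -0.36 ± 0.22, 0.10 ± 0.22 and 0.42 ± 0.23 at 6, 12, 24 and 48 h, with adjusted p of 0.54, 0.32, 0.85 and 0.20 with 24 libraries. With 22 libraries the adjusted p was 1.0e-05, 3.3e-07, 0.055 and 3.0e-08. The 12 h effect with the replicate block was -0.33 ± 0.07 (adjusted p = 0.0018), and it ran from -0.67 without the control replicate 3 to -0.14 without the DMF replicate 3. The effect at 48 h minus that at 6 h was 0.72 ± 0.32 (adjusted p = 0.17) with 24 libraries and 0.73 ± 0.07 (adjusted p = 2.2e-09) with 22.

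VDAC2 (chromosome 10, 75210154 to 75231448, plus strand), a metabolite channel of the outer mitochondrial membrane that erastin, a ferroptosis inducer, is known to bind, had 805, 779 and 824 CPM with DMF at 6 h, against 651, 647 and 632 CPM in controls. At 24 h it had 759, 710.1 and 686 CPM with DMF, against 631, 637 and 615 CPM in controls. At 48 h the order was the opposite, with 613, 573 and 571 CPM with DMF against 693, 790.5 and 683 CPM in controls. The DMF and control groups do not overlap at these 3 times. At 12 h VDAC2 had 878, 917 and 1388.5 CPM with DMF, against 695, 736 and 1193.1 CPM in controls, with replicate 3 highest in each arm. Log2 fold changes were 0.32 ± 0.17 at 6 h, 0.28 ± 0.17 at 12 h, 0.19 ± 0.17 at 24 h and -0.30 ± 0.17 at 48 h, with adjusted p of 0.31, 0.31, 0.55 and 0.23 with 24 libraries. With 22 libraries each was called (adjusted p = 2.4e-06, 2.2e-05, 0.00063 and 3.0e-06), and the effect at 48 h was 0.62 ± 0.07 below that at 6 h on the log2 scale (log2 difference -0.62, adjusted p = 1.4e-08; 0.11 with 24 libraries). The 12 h effect with the replicate block was 0.29 ± 0.06 (adjusted p = 0.00075), and it ran from 0.04 without the DMF replicate 3 to 0.56 without the control replicate 3. GENCODE v29 lists 4 VDAC2 pseudogenes (VDAC2P1 to VDAC2P4), which have no rows of their own in the tables used here, so this count is uncertain where reads could come from either.

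SAT1 (chromosome X, 23783173 to 23786226, plus strand) encodes the spermidine and spermine acetyltransferase that starts polyamine breakdown, and which has been tied to ferroptosis through lipoxygenase activity. It had 42.5, 41.8 and 45.3 CPM with DMF at 6 h, against 35.4, 33.0 and 36.2 CPM in controls. At 12 h it had 47.3, 48.3 and 82.7 CPM with DMF, against 28.9, 28.7 and 52.5 CPM in controls. In CPM the control replicate 3 was above 2 DMF libraries at 12 h, whereas the TPM values did not overlap (72.7, 72.7 and 67.8 TPM with DMF, against 48.1, 47.1 and 34.4 TPM in controls). SAT1 rose 1.62-fold at 12 h (log2 fold change 0.70 ± 0.20, adjusted p = 0.020 with 24 libraries; 0.74 ± 0.06 and 1.6e-10 with 22). The call with 24 libraries was lost in 16 of 24 fits that left out 1 library. Log2 fold changes were 0.39 without the DMF replicate 3 and 1.03 without the control replicate 3. The call was also lost in the fit of the 6 libraries of 12 h alone (adjusted p = 0.75), where 0 of all tested genes were called.

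At 24 h SAT1 had 36.0, 36.4 and 36.7 CPM with DMF, against 25.5, 23.6 and 24.1 CPM in controls (log2 fold change 0.58 ± 0.20, adjusted p = 0.061 with 24 libraries, 3.3e-10 with 22). At 48 h it had 54.4, 49.7 and 54.7 CPM with DMF, against 45.4, 47.3 and 44.1 CPM in controls (0.21 ± 0.20, adjusted p = 0.50 with 24 libraries, 0.00066 with 22). DMF libraries lay above controls at both times, with the wider gap at 24 h. The effect at 48 h minus that at 24 h was -0.36 ± 0.28 with 24 libraries (adjusted p = 0.70) and -0.37 ± 0.07 with 22 (adjusted p = 0.00014).

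**Figure D3:**
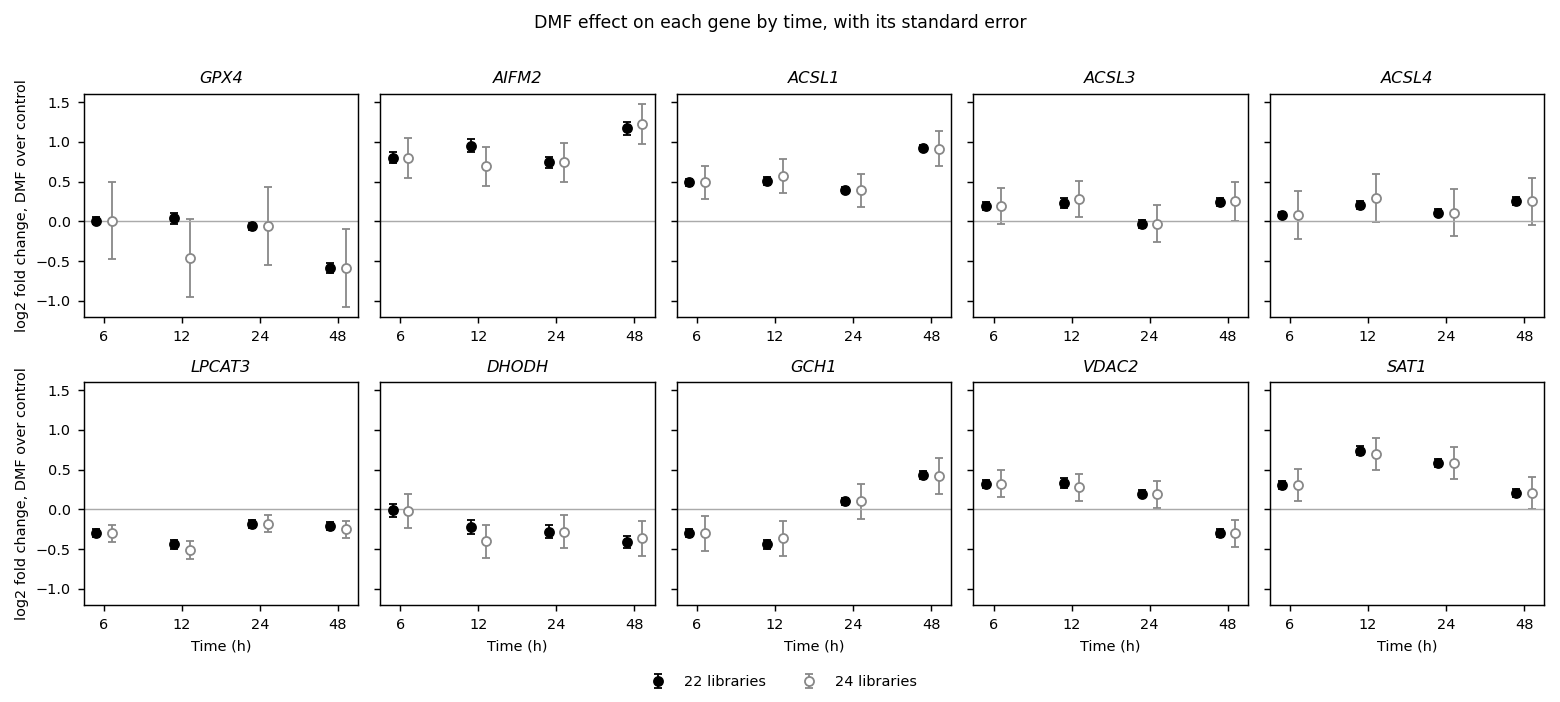
Log2 fold change of DMF over control (vertical axis) by time in hours for each of the 10 genes, with its standard error as bars. Filled points are the fit of 22 libraries and open points that of 24. AIFM2, ACSL1, ACSL4 and SAT1 lie above 0 and LPCAT3 and DHODH below 0 at every time in both fits. The bars of GPX4 are 0.49 long on each side with 24 libraries.

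Whether the effect of DMF differed between times was tested jointly. With 24 libraries, 0 of the 10 genes were called and 15% of all genes were; the smallest unadjusted p was 0.066 (VDAC2), DESeq2 called 0 and limma on log2(TPM + 1) called 1. With 22 libraries, 9 of the 10 were called and 69.1% of all genes were, ACSL4 being the exception (adjusted p = 0.063). AIFM2 and ACSL1 had their highest log2 fold change at 48 h. For ACSL1 the effect at 48 h exceeded that at 6 h by 0.42 ± 0.06 (adjusted p = 1.5e-06) with 22 libraries and 0.41 ± 0.30 (adjusted p = 0.49) with 24. For AIFM2 the same difference was 0.37 ± 0.10 (adjusted p = 0.0035) with 22 libraries and 0.42 ± 0.35 (adjusted p = 0.56) with 24. For GPX4 it was -0.60 ± 0.08 (adjusted p = 6.4e-07) with 22 libraries and -0.60 ± 0.69 (adjusted p = 0.71) with 24.

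Control cultures changed with time as well, and these comparisons share the control of 6 h with the first DMF comparison. Against 6 h, 2 of the 10 genes rose and 0 fell at 12 h (AIFM2 and LPCAT3), where 18.8% of all genes were called, 12% higher and 6.84% lower. LPCAT3 alone rose and 0 fell at 24 h (16.8% of all genes called, 9.29% higher and 7.53% lower). LPCAT3 rose and AIFM2 fell at 48 h (42% of all genes called, 21.6% higher and 20.4% lower). For the 0 that fell at 12 and 24 h, DESeq2 called 1 and 0, and 5 and 2 of the 10 had an unadjusted p under 0.05 in either direction. The 12 h call of AIFM2 (log2 fold change 0.73, adjusted p = 0.048) was a log2 fold change of 0.19 with 22 libraries (adjusted p = 0.043) and was lost in 19 of 24 fits that left out 1 library; that of LPCAT3 was lost in 2. With 22 libraries, 4 rose and 3 fell at 12 h (39.6% of all genes called, 21.1% higher and 18.5% lower). The later controls gave 3 up and 5 down at 24 h (56.5%, 28.8% higher and 27.7% lower) and 5 up and 4 down at 48 h (75%, 38.2% higher and 36.8% lower).

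The genes nearest to each called gene by their 4 effects of DMF (root mean square difference in the fit of 22 libraries, 9677 candidates with a mean of at least 5 CPM) were ATP6V0B, IGF2R and SPNS1 for AIFM2, at 0.119 to 0.131 log2. For ACSL1 they were ADAM17, TMEM70 and IP6K1 at 0.050 to 0.056. LPCAT3 had POLR2I, TFDP2 and ZFAND2B at 0.020 to 0.041, and SAT1 had POLR2J2, POFUT2 and SARAF at 0.060 to 0.096. ATP6V0B, a subunit gene of the vacuolar proton pump, had log2 fold changes of 0.74, 0.76, 0.86 and 1.2 at 6, 12, 24 and 48 h, beside 0.80, 0.95, 0.74 and 1.17 for AIFM2.

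The 10 genes work beside 9 groups of neighbouring enzymes, 87 genes in all, of which 79 were tested with 24 libraries. Of these, 4 rose and 6 fell at 6 h, 5 rose and 12 fell at 12 h, 9 rose and 10 fell at 24 h, and 15 rose and 13 fell at 48 h. With 22 libraries (80 tested) the numbers were 27 and 20, 23 and 24, 26 and 24, and 36 and 23. The shares of all genes called were 10.6%, 17.3%, 14.4% and 25.8% with 24 libraries and 47.2%, 47.9%, 57.4% and 64.5% with 22. With the replicate block, 19 rose and 24 fell at 12 h (47.8% of all genes). Where a call of a named gene was lost when 1 library was left out, the number of such fits of the 24 is given beside it. Median log2 fold changes of the groups lay between -0.27 and 0.46, and the values that follow are from the 24 libraries unless stated.

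Among the genes listed for selenoprotein synthesis, which makes GPX4, 1 was lower with DMF throughout. SEPHS1, a paralogue of the selenophosphate synthetase, fell at all 4 times (log2 fold changes -0.49, -0.79, -0.73 and -0.84, adjusted p between 3.4e-05 and 0.010; the 6 h call was lost in 4 of 24 fits). It had 35.9, 36.4 and 35.5 CPM with DMF at 48 h, against 65.4, 69.3 and 58.2 CPM in controls, with no overlap. TRIT1, which modifies tRNAs including that for selenocysteine, fell at 48 h (-0.44), and SEPSECS, which converts the serine on that tRNA, fell at 12 h (-0.66). LRP8, a receptor for selenoprotein P, rose at 12 h (0.75, adjusted p = 0.045), a call lost in 8 of 24 fits. It was 1.01 without the DMF replicate 3 of 12 h and 0.43 without the control replicate 3, and the 12 h groups overlapped in CPM. At 6 h LRP8 was not called, yet the groups did not overlap. It had 113, 112 and 115 CPM there with DMF, against 65.5, 68.1 and 68.0 CPM in controls. Of 9 genes tested, 0 rose and 1 fell at 6 h, 1 rose and 2 fell at 12 h, 1 fell at 24 h and 2 fell at 48 h. Of all genes, 10.6%, 17.3%, 14.4% and 25.8% were called at these times. With the replicate block 2 rose and 4 fell at 12 h (47.8% of all genes called).

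Among 15 tested genes of fatty acid activation, desaturation and phospholipid remodelling, 0 rose and 2 fell at 6 h, 4 fell at 12 h, 1 rose and 4 fell at 24 h, and 2 rose and 5 fell at 48 h. The shares of all genes called were 10.6%, 17.3%, 14.4% and 25.8%. With 22 libraries 5 rose and 2 fell at 6 h, and 4 rose and 5 fell at 12 h. Another 3 rose and 6 fell at 24 h, and 3 rose and 7 fell at 48 h, against shares of 47.2%, 47.9%, 57.4% and 64.5% at the 4 times. With the replicate block 3 rose and 5 fell at 12 h (47.8% of all genes called). The desaturase genes FADS1 and FADS2 make long polyunsaturated fatty acids. FADS2 had 31.9, 35.6 and 36.8 CPM with DMF at 48 h, against 97.5, 109.7 and 102 CPM in controls (log2 fold change -1.56 ± 0.13, adjusted p = 5.0e-08). It was also below its control at 24 h (-0.93). From 6 to 48 h its mean went from 17.2 to 34.8 CPM with DMF and from 15.3 to 103 CPM in controls. FADS1 fell at all 4 times (log2 fold changes -0.56, -1.55, -0.55 and -0.91; the 6 h call was lost in 1 of 24 fits). At 48 h FADS1 had 25.5, 28.2 and 30.8 CPM with DMF, against 53.8, 49.4 and 56.0 CPM in controls, so both desaturase genes separated there. LPCAT4, a lysophospholipid acyltransferase, fell at 6, 12 and 48 h (-1.15, -0.72 and -0.59), and LPCAT1, which acts on saturated chains, at 12, 24 and 48 h (-0.38, -0.32 and -0.28).

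Of the lipid oxidation enzymes, 5 of 11 passed the filter. CYB5R1, an oxidoreductase known to drive lipid peroxidation together with POR, rose at all 4 times (log2 fold changes 0.44, 0.95, 1.06 and 1.40) and had 35.0, 28.0 and 27.6 CPM with DMF at 48 h, against 11.9, 11.9 and 10.2 CPM in controls. POR rose at 48 h (0.63), a call lost in 17 of 24 fits. ALOX5, the arachidonate 5-lipoxygenase gene, was below its control at all 4 times (-0.68, -1.87, -1.34 and -1.81). It had 4.86, 5.005 and 5.20 CPM with DMF at 48 h, against 17.1, 17.5 and 18.7 CPM in controls. From 6 to 48 h its mean went from 2.79 to 5.02 CPM with DMF and from 4.47 to 17.8 CPM in controls. ALOX12, another lipoxygenase gene, rose at 24 h (1.01), to 2.87, 2.30 and 2.26 CPM, against 1.27, 1.23 and 1.19 CPM in controls, a call lost in 14 of 24 fits. The CYB5R1 and ALOX5 groups do not overlap at 48 h, in opposite directions.

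Coenzyme Q is the shared substrate of AIFM2 and DHODH. NQO1, a quinone reductase and NRF2 target, rose at all 4 times, and at 48 h it had 82.7, 81.1 and 79.2 CPM with DMF, against 3.46, 3.73 and 3.04 CPM in controls (log2 fold change 4.57 ± 0.22, adjusted p = 8.4e-11). Genes of the synthesis pathway moved less. COQ7 fell at 12 and 24 h (-0.58 and -0.51, the second lost in 3 of 24 fits), and COQ8A fell at 48 h (-0.56). Of 14 tested, 1 rose and 0 fell at 6 h, 1 rose and 2 fell at 12 h, 2 rose and 1 fell at 24 h, and 3 rose and 1 fell at 48 h. The shares of all genes called were 10.6%, 17.3%, 14.4% and 25.8%. With the replicate block 3 rose and 7 fell at 12 h (47.8% of all genes called).

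In the tetrahydrobiopterin pathway behind GCH1, 1 of 7 tested genes was called at any time with 24 libraries. PTS, the enzyme after GCH1, rose at 48 h (0.79 ± 0.28, adjusted p = 0.045), a call lost in 20 of 24 fits. With 22 libraries 2 rose and 0 fell at 6 h, and 1 rose and 3 fell at 12 h. At 24 h 2 rose and 2 fell, as at 48 h. The shares of all genes called with 22 libraries were 47.2%, 47.9%, 57.4% and 64.5%. At 12 h 3 of the pathway's genes fell with the replicate block, where 24.4% of all genes fell. Of the 6 pyrimidine genes around DHODH, UCK2 rose at 6 h (0.29, lost in 4 of 24 fits), CTPS1 and UMPS at 48 h (0.49 and 0.41), and CTPS2 fell at 12, 24 and 48 h (-1.2, -0.47 and -0.77; the 24 h call was lost in 2 of 24 fits). CTPS1 and CTPS2 both encode CTP synthetases, and at 48 h they stood on opposite sides of their controls. From 6 to 48 h the mean of CTPS1 went from 148 to 80.4 CPM with DMF and from 143 to 57.2 CPM in controls. That of UMPS went from 114 to 56.7 CPM with DMF and from 102 to 42.6 CPM in controls. Among 8 ether lipid genes, FAR2 rose at 48 h (1.47, at under 1 CPM in all 48 h libraries, lost in 4 of 24 fits) and PEX3 fell at 48 h (-0.43). PEX10 fell at 12 h (-0.35, lost in 3 of 24 fits) and rose at 24 h (0.33, lost in 15) and 48 h (0.32, lost in 18), and PEX7 fell at 6 h (-0.50, lost in 14). PEX3, PEX7 and PEX10 act in peroxisome assembly and import.

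Around SAT1, 9 of 10 polyamine genes were tested. ODC1, the first enzyme of polyamine synthesis, was above its control at 12, 24 and 48 h (log2 fold changes 0.66, 0.42 and 0.86). It had 1031, 941 and 949.8 CPM with DMF at 48 h, against 565, 564 and 483 CPM in controls. From 6 to 48 h its mean went from 1497 to 974 CPM with DMF and from 1242 to 537 CPM in controls. OAZ2, an antizyme that restrains ODC1, rose at 12, 24 and 48 h (0.29, 0.56 and 0.73). Its 12 h call was lost in 17 of 24 fits, with 0.18 to 0.37 on the log2 scale. SMS, which makes spermine, fell at all 4 times (-0.25, -0.39, -0.58 and -0.83), though the 6 h call was lost in 18 of 24 fits. SAT2, a relative of SAT1, rose at 24 h (1.69), to 7.68, 6.20 and 7.03 CPM, against 2.002, 2.46 and 2.03 CPM in controls, a call lost in 5 of 24 fits. The group as a whole had 1 gene lower at each of the 4 times, beside 0, 2, 3 and 2 higher at 6, 12, 24 and 48 h. The shares of all genes called were 10.6%, 17.3%, 14.4% and 25.8%. With the replicate block 4 rose and 2 fell at 12 h (47.8% of all genes called).

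Among 6 genes beside VDAC2, NEDD4L rose at 6 h (0.91) and the pore-forming cell death gene BAK1 at 48 h (0.84, lost in 3 of 24 fits), while VDAC1, a relative of VDAC2, fell at 24 and 48 h (-0.25, lost in 3 of 24 fits, and -0.49). In the 12 h comparison 4 of the genes rose with the replicate block, where 23.3% of all genes rose. VDAC1 had 295, 315 and 312 CPM with DMF at 48 h, against 419, 458 and 419 CPM in controls, and the groups do not overlap. NEDD4L encodes a ubiquitin ligase, whose relative NEDD4 is known to mark VDAC2 for degradation.

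**Figure D4:**
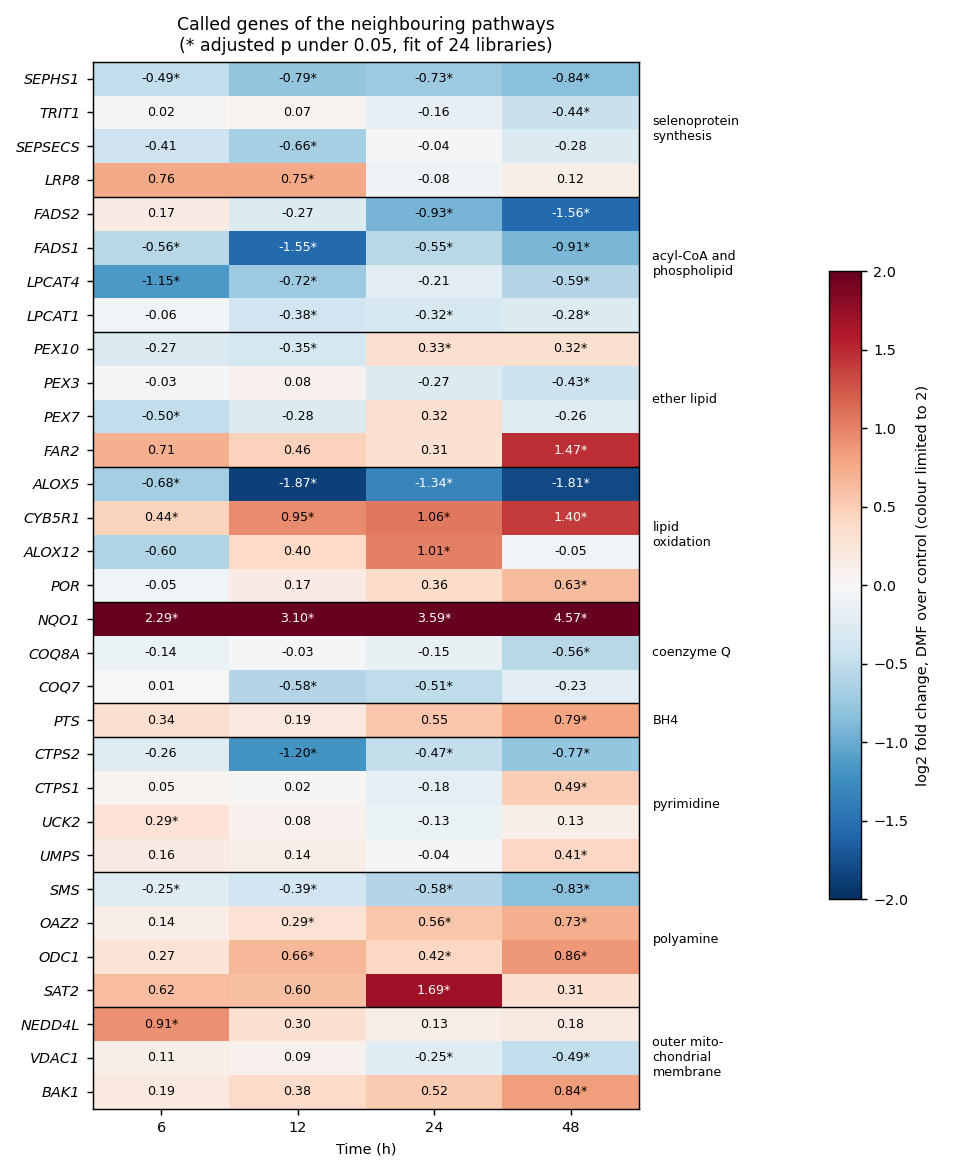
Log2 fold change of DMF over control (colour, limited to 2 on each side, with the value in each cell) at 4 times in hours, for called genes of the groups of neighbouring enzymes, in the fit of 24 libraries. Stars mark an adjusted p under 0.05; NQO1 rises to 4.57 at 48 h, and SEPHS1, FADS1, ALOX5 and SMS are starred and negative at all 4 times.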

How the data were processed

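Each of the 24 libraries has a table with 1 row per gene. Per the file headers, the authors deposited RSEM expected counts (estimated reads per gene), TPM values and mean transcript lengths in bases. The submitters' processing notes name HISAT2, HISAT, RSEM and GRCh38.p12, without versions or order; strand and filters are not given in the sources used here. The authors' expected counts were rounded to whole numbers; 6.16% to 11.53% of genes per library had a count that was not whole (tolerance 0.005).

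Groups came from the labels. The main test was edgeR 4.0.16's quasi-likelihood test (R 4.3.3) with 8 group means, TMM scaling, filterByExpr (13419 of 21831 genes kept), Benjamini-Hochberg adjustment over all tested genes and a threshold of 0.05. It was repeated without both 12 h libraries numbered replicate 3 (13606 genes kept). Standard errors are the log2 fold change divided by the square root of its F statistic. Alternatives were DESeq2 1.42.0, DESeq2's size factors, no low-count filter (18123 genes), limma 3.58.1 on log2(TPM + 1) and log2(TPM + 0.1), a replicate block, only the 6 libraries compared, and each library left out. At 12 h the 3 same-numbered pairs of libraries deviated together from their group means (correlations 0.896, 0.897 and 0.954). Replicate 3, which stood apart in both arms, is in each mean and moves the deviations of the other libraries in both. This check therefore cannot show whether the numbers pair the libraries. Scripts were tested on simulated data. The members and lists were chosen with earlier results of these data known. Named were all 10 members, up to 4 called genes of each neighbouring list with the smallest joint p, and the 3 nearest genes of each called member. Promoters came from RefSeq (GRCh38.p14). The shallowest library, DMF 48 h replicate 1, held 2870751 expected counts and is the least precise. FPKM columns were not used. Some genes of these lists are not reported here.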

Additional observations from a re-analysis of the deposited data

Results flagged for a closer look

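For 9 of the 10 genes the effect of DMF differed between the 4 times in the joint edgeR test of the 22 libraries, where 69.1% of all genes did. With all 24 libraries 0 of the 10 passed that test (15% of all genes), with adjusted p between 0.23 and 0.99. The 22-library adjusted p was 3.6e-10 for GCH1, lower than its control at 6 and 12 h and higher at 48 h, and 1.5e-08 for VDAC2, higher at 6, 12 and 24 h and lower at 48 h. It was 1.9e-07 for ACSL1 and 0.0027 for AIFM2, whose effects were greatest at 48 h, and 3.1e-06 for SAT1, whose effect was greatest at 12 h. GPX4 had 5.3e-07, with its lowest effect at 48 h (log2 fold change -0.59). The others were ACSL3 at 0.0025, LPCAT3 at 0.031 and DHODH at 0.020.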

How the results depend on the processing

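Counts are given as genes higher, then lower, of the 10. Without both 12 h libraries numbered replicate 3, the 4 DMF comparisons, in order of time, gave 5 and 2, 6 and 2, 5 and 2, and 6 and 4, 9 genes differed between times, and controls against 6 h gave 4 and 3, 3 and 5, and 5 and 4. Genes called over the whole table were 6421, 6515, 7805 and 8775 at the 4 times, against 1425, 2324, 1933 and 3465 with all 24 libraries. Signs turned for GPX4 at 12 h (0.035) and, in controls of 12 h against 6 h, for GPX4 (-0.12), ACSL3 (0.028), DHODH (-0.099) and SAT1 (-0.29). The 6 libraries of each comparison alone gave 5 and 2, 0 and 0, 5 and 2, and 6 and 4. Over the whole table these fits called 7256, 0, 7817 and 7735 genes, so the 0 at 12 h held for every gene. Controls gave 0 higher at 12 h, where 0 of all genes were called, 3 and 5 after 24 h, and 5 and 4 after 48 h. GPX4 at 6 h was -5.2e-05. With the replicate block the counts were 5 and 2, 6 and 3, 4 and 2, and 6 and 4, with 7 differing between times and 1 and 1 in controls of 12 h, and 4789, 6411, 6334 and 7425 genes called in all. Deviations of same-numbered libraries of 6, 24 and 48 h had correlations of -0.078 to 0.044. Over all times, 6 of 12 DMF libraries correlated best with their own number.

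DESeq2 gave 1 lower at 6 h, 2 higher at 12 h, 1 lower at 48 h, and in controls 1 lower at 12 h and 2 lower at 48 h. DESeq2's size factors gave 0 higher at 6 h, 2 higher at 12 h, and 1 and 1 in controls of 12 h. Without the low-count filter 0 control genes were higher at 12 h. On both TPM scales, 2 were higher and 0 lower at 12 h, 2 were higher at 24 h, 1 differed between times, and controls gave 0 and 1 both for 12 h and for 24 h. TPM shifted the median of all genes by -0.14, 0.06, -0.05 and 0.23 at 6, 12, 24 and 48 h. With pseudocounts of 1 and then 0.1, signs turned for GPX4 at 6 h (-0.13 in both), ACSL4 at 6 h (-0.064 and -0.065), the 48 h minus 6 h difference of DHODH (0.048 and 0.053) and SAT1 (0.30 in both), and VDAC2 in controls of 24 h (0.013 in both). In controls of 12 h against 6 h they turned for LPCAT3 (-0.15 and -0.17), DHODH (-0.27 and -0.30), GCH1 (-0.35 and -0.39), VDAC2 (-0.078 in both) and SAT1 (-0.41 in both). The cause of these changes was not tested.

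Leaving out 1 library at a time gave 0 to 2 higher and 0 to 1 lower for 6 h, 0 to 3 and 1 to 2 for 12 h, 0 to 3 higher at 24 h, 0 to 2 lower at 48 h, and 0 to 3 differing between times. In controls it gave 0 to 4 and 0 to 1 for 12 h, 1 to 2 and 0 to 1 for 24 h, and 1 to 2 in both directions for 48 h. The highest counts of genes higher with DMF came without replicate 3 of the control at 12 h (the lower count of 1 at 6 h came without the DMF replicate 3 of 12 h), and leaving it out also gave the most genes called (2645, 4344, 3577 and 5298). Effects of DMF that turned ran from -0.024 to 0.046 for GPX4 at 6 h, -1.27 to 0.83 for GPX4 at 12 h, -0.031 to 0.52 for ACSL3 at 12 h, -0.095 to 0.58 for ACSL4 at 12 h, -0.060 to 0.043 for DHODH at 6 h and -0.63 to 0.0020 for DHODH at 12 h. The 48 h minus 6 h difference ran from -0.0066 to 0.10 for ACSL3 and -0.029 to 0.097 for LPCAT3. Controls of 12 h against 6 h ran from -0.12 to 1.69 for GPX4, -0.41 to 0.032 for ACSL3, -0.10 to 0.58 for DHODH, -0.060 to 0.40 for GCH1 and -0.28 to 0.31 for SAT1. The 65 called effects of the named neighbouring genes turned in 0 of the alternatives run, though 40 lost their call in each TPM fit. With the 6 libraries alone 15 lost it, all of them at 12 h, where that fit called 0 of all genes. The call was lost for 6 with DESeq2's size factors, 3 without the filter and 1 with DESeq2. In fits that left out 1 library, calls were lost 173 times.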
